A study of Rattus norvegicus with 44 samples.

Results

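PDGF-AB and FGF2 were set against each other directly in cultured rat ovaries, to ask which transcripts separate the responses to these growth factors. The comparison used 3 PDGFab arrays and 3 FGF2 arrays, 6 of the 44 arrays of the series, chosen by their titles, and all 27342 probe sets of the array. PDGFab samples were whole ovaries of 4-day-old female Sprague-Dawley rats cultured for 48 h with 50 ng/ml of rat PDGF-AB, the heterodimer of a PDGF A and a PDGF B chain. FGF2 samples were the same kind of ovary cultured for 48 h with 50 ng/ml of rat FGF2, and 14 control samples of the same array set received no growth factor. Each sample pooled 2 to 3 ovaries of a single culture well, from different pups of a litter, so the p-values measure the spread between wells. The labels give no culture day or litter for a well, and the part of these in the differences was not tested. The dose was equal by weight and a single dose and time were measured for each factor.

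At this age the rat ovary holds mostly primordial follicles, in which an arrested oocyte is wrapped by flat pregranulosa cells and surrounded by stroma. PDGF-AB and FGF2 are ligands of different receptor tyrosine kinases that share much of their downstream signalling, including the RAS to ERK cascade. Active ERK induces its own inhibitors, among them the Sprouty and DUSP families, and the PEA3 group of ETS transcription factors, so these genes are commonly read as a gauge of the cascade. PDGF receptors are best known on mesenchymal and perivascular cells, and FGF receptors are found on epithelial, granulosa and stromal cells.

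Levels are the log2 values of the deposited table, and a difference is the PDGFab mean minus the FGF2 mean, so that a negative value means a lower level in PDGFab ovaries. Array medians lay between 5.95 and 5.998 and correlations between the 6 arrays between 0.976 and 0.995. FGF2 array 1 stood apart from the other 5: its correlation with them was 0.976 to 0.985, and limma gave it a quality weight of 0.309, the lowest of the 6, against 0.59 to 2.18 for the PDGFab arrays and 1.05 and 1.29 for the other FGF2 arrays. The oocyte genes Gdf9 and Bmp15 and the somatic genes Wt1 and Amhr2 were above the array median in all 6 arrays. Gdf9, an oocyte growth factor, was at 9.93, 9.99 and 10.27 in PDGFab ovaries and at 7.55, 10.62 and 10.42 in FGF2 ovaries. The fat cell marker Adipoq lay between 4.16 and 4.33 in all 6 arrays. RNA came from whole ovaries, so fewer cells of a type and less RNA per cell cannot be told apart.

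With 3 arrays a group, few probe sets could be called different between PDGFab and FGF2 ovaries. A single probe set passed an adjusted p of 0.05, the tubby-family gene Tulp2, which was lower in PDGFab ovaries (0.00366% of the probe sets tested). No probe set passed in the higher direction, and the next lowest adjusted p was 0.218. At an unadjusted p under 0.05 there were 136 probe sets higher (0.497%) and 213 lower (0.779%) in PDGFab than in FGF2 ovaries, together 1.28% of those tested. With p-values spread evenly, as when no probe set differs, a share of 0.05 would fall under that threshold, more than was seen. The number of probe sets at this threshold thus does not by itself show a difference between the groups. The thresholds of the study were then applied to limma's unadjusted p. They ask that unlogged group means differ by 10 or more and that their ratio reach 1.2, or 0.83 in the lower direction. These study criteria were met by 69 probe sets higher (0.252%) and 106 lower (0.388%). The absolute difference exceeded 1 at 21 probe sets, 8 higher and 13 lower. The 95% interval of the difference lay within 1 log2 unit on either side of 0 for 26420 probe sets (96.6%) and within 0.5 for 20241 (74.0%). The median half-width of that interval was 0.294, so most differences under about 0.3 could not be resolved with 3 arrays a group. Of the 46 named genes with an unadjusted p under 0.05, 10 stayed under it without each of the 6 arrays in turn, and 36 did not without at least 1 of them.

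**Figure D1:**
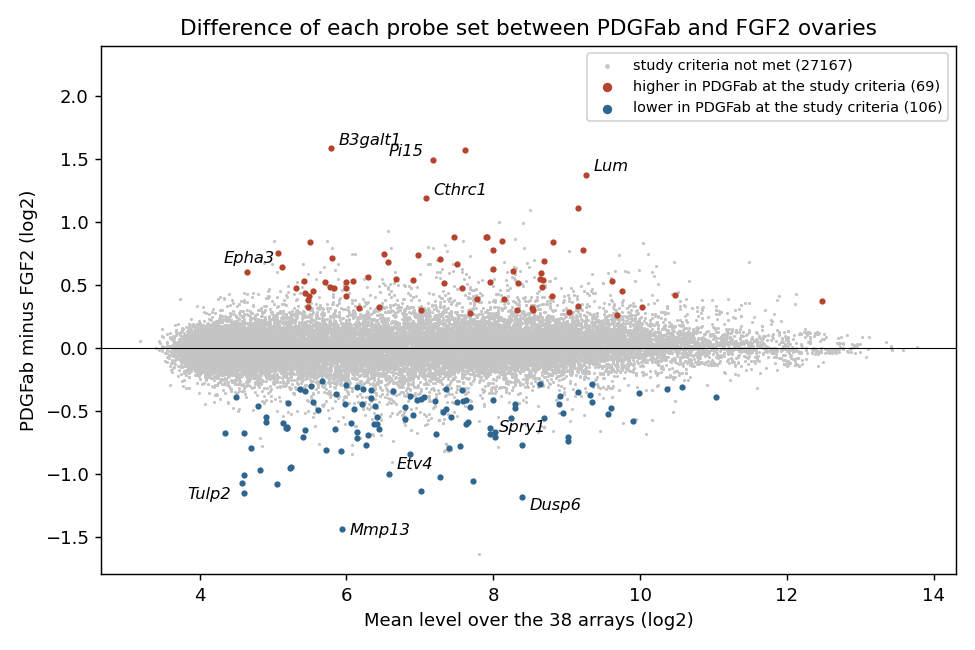
Each point is a probe set, with its mean level over the 38 arrays (log2) on the horizontal axis and its PDGFab minus FGF2 difference (log2) on the vertical axis. Coloured points met the study criteria, 69 higher and 106 lower in PDGFab ovaries, and only Tulp2 passed the adjusted threshold.

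Tulp2 was measured at 4.57, 4.47 and 4.53 in PDGFab ovaries and at 5.87, 5.22 and 5.71 in FGF2 ovaries, while the 14 controls ran between 4.29 and 4.81 with a median of 4.52. The means were 4.52 ± 0.05 in PDGFab ovaries and 5.6 ± 0.34 in FGF2 ovaries (SD, n = 3 each). All PDGFab arrays lay inside the control range and all FGF2 arrays above it. The difference was -1.08 (95% interval -1.32 to -0.83), with an adjusted p of 8.15e-06 in limma. The PDGFab and control levels were near those of dim probe sets: olfactory receptor genes averaged 4.31 to 4.45 by array. The mean of Tulp2 over the 38 arrays was 4.58, so most arrays behind the pooled variance read low. The limma interval may therefore understate the spread of the FGF2 arrays. The exact permutation p over the 20 splits of the 6 arrays was 0.1, the smallest that this design allows. Leaving out any single array gave differences of -1.27 to -0.94, and Tulp2 passed the adjusted threshold each time. It did not pass when the variance came from the 6 arrays alone (adjusted p = 1.0).

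Dusp6, the cytosolic phosphatase that dephosphorylates ERK, was measured at 10.06, 8.52 and 8.78 in PDGFab ovaries and at 11.39, 9.85 and 9.67 in FGF2 ovaries. The controls ran between 7.70 and 9.18 with a median of 7.97. Array 1 was the highest of its group under both factors, and PDGFab array 1 overlapped the other FGF2 arrays, whereas every FGF2 array lay above every control. The difference of -1.19 (-1.95 to -0.42) had an unadjusted p of 0.00353 and did not pass adjustment. Without FGF2 array 1 it was -0.64 (p = 0.0919), and without PDGFab array 1 it was -1.65 (p = 0.000156).

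The promoters of Tulp2 and Dusp6 are shown because Tulp2 was the only adjusted call and Dusp6 had the lowest difference among ERK feedback genes. Both are RefSeq sequences on GRCr8, read on the plus strand from 250 bases before the gene's start to 50 after it. Capitals mark the ETS core CGGAA and the PEA3-type motif AGGAAG, matched on either strand, so that TTCCG and CTTCCT are matches on the other strand.
Tulp2, chr1:105098717-105099016: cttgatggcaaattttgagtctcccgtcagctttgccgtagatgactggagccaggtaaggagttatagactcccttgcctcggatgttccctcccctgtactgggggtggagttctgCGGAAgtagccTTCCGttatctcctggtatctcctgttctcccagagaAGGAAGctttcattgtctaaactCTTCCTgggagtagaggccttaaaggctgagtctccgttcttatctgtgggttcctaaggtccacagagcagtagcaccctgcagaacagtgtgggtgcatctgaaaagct
Dusp6, chr7:35979354-35979653: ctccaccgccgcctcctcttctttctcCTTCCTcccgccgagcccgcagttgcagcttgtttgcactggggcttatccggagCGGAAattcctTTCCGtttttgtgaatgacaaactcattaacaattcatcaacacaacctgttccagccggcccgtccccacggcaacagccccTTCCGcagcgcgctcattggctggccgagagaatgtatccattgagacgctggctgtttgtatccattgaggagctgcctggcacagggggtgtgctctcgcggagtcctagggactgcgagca
The Tulp2 window held 2 matches of CGGAA and 2 of AGGAAG, and the Dusp6 window held 3 and 1. The same motifs were searched in 6 further promoters: Spry1, Etv1 and Etv5 held neither motif, and Spry4, Lum and Epha3 held 1 CGGAA each and no AGGAAG. Of 33469 promoters of the same length, 30.4% held CGGAA and 34.5% held AGGAAG, so single matches are common. In the Tulp2 and Dusp6 windows a pair of CGGAA cores faced each other across 6 bases, as CGGAANNNNNNTTCCG, starting 132 bases before the start of Tulp2 and 168 before that of Dusp6. This spacing was noticed after both sequences had been read, and the pattern was taken from them. Its presence in both was therefore fixed beforehand. It was in none of the other 6 promoters searched, and in 7 of all 33469 (0.0209%), Tulp2 and Dusp6 among them. Other spacings were not counted, so this share does not measure how unusual the shared pair is. The AP-1 motif TGACTCA, which 4.63% of promoters held, was in none of the 8. A match describes letters and does not show that a factor binds there.

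The genes of the ligands and of their receptors did not separate the groups at this precision. Pdgfra, the receptor that binds both A and B chains, was measured at 10.67, 10.05 and 10.10 in PDGFab ovaries and at 10.30, 10.03 and 10.15 in FGF2 ovaries. Its difference was 0.11 (-0.20 to 0.43), and that of Pdgfrb, the receptor for the B chain, was -0.09 (-0.47 to 0.30). Groups overlapped for both receptors. Fgfr1 differed by -0.08 (-0.43 to 0.27), Fgfr2 by -0.04 (-0.57 to 0.49) and Fgfr3 by 0.10 (-0.50 to 0.70). Among the ligands, Pdgfa differed by -0.05 (-0.48 to 0.38), Pdgfb by -0.40 (-1.01 to 0.21) and Fgf2 by -0.11 (-0.40 to 0.18). Of these 8 genes the interval crossed -1 for Pdgfb alone, where FGF2 array 1 read 7.54 and the other FGF2 arrays 6.52 and 6.58. In the wider lists, 1 of 17 FGF ligand and receptor genes and 2 of 16 PDGF and VEGF ligand and receptor genes reached an unadjusted p under 0.05, all higher in PDGFab ovaries, and none did in the lower direction, beside 0.497% and 0.779% of all probe sets. The FGF count was 0 without PDGFab array 1, and without FGF2 array 2 it was 2 higher and 1 lower. The PDGF and VEGF count was 1 without PDGFab array 1 or FGF2 array 1.

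**Figure D2:**
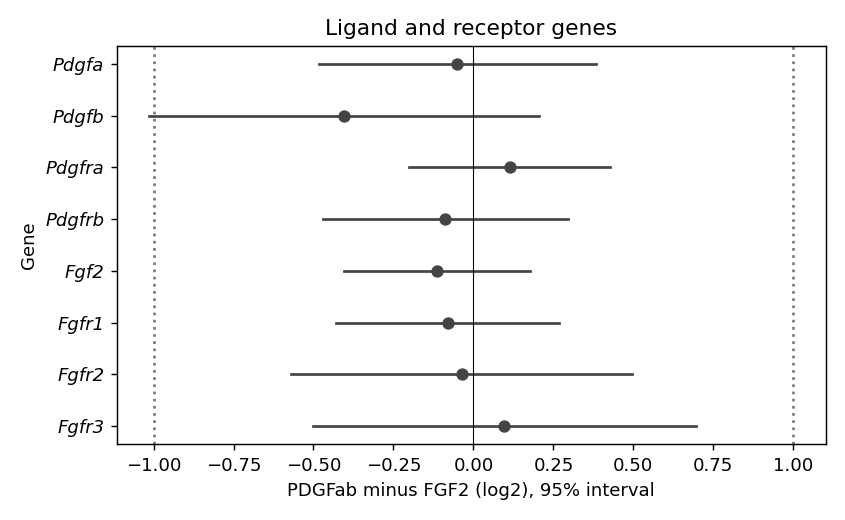
Difference between PDGFab and FGF2 ovaries (log2, horizontal axis) for each ligand and receptor gene (vertical axis), with dots for the difference, bars for its 95% interval and dotted lines at 1 log2 unit on either side. Every interval includes 0, and that of Pdgfb is the only one to reach a dotted line.

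Among the 3 genes of that kind, Vegfd, a lymphatic growth factor, was measured at 6.78, 5.21 and 5.32 in PDGFab ovaries and at 4.98, 5.15 and 4.92 in FGF2 ovaries. Its difference of 0.75 (0.24 to 1.26, p = 0.0053) leaned on PDGFab array 1, without which it was 0.25 (p = 0.232). Pgf, placental growth factor, was at 7.28, 8.16 and 8.27 in PDGFab ovaries and at 6.56, 7.13 and 7.37 in FGF2 ovaries, a difference of 0.89 (0.26 to 1.51). The controls for Pgf had a median of 8.04, close to the PDGFab arrays 2 and 3, and PDGFab array 1 overlapped the FGF2 group. The Pgf difference was 0.66 (p = 0.0585) without FGF2 array 1. Fgf7, a stromal ligand for epithelial FGF receptors, differed by 0.60 (0.18 to 1.02), again led by PDGFab array 1 at 5.57 beside 4.78 and 4.69, and was 0.32 (p = 0.126) without it. FGF2 ovaries had Fgf7 at 4.22, 4.70 and 4.31.

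ERK feedback genes were lower in PDGFab ovaries where they differed. Of 18 measured, 3 (Dusp6, Spry1 and Spry4) were lower at an unadjusted p under 0.05 and none was higher, beside 0.779% and 0.497% of all probe sets. The median difference of the list was -0.17, with 13 of 18 below 0, and over all 14329 genes the median was 0.0004 with 49.8% below 0. No member passed adjustment. Without FGF2 array 1 the list's median was -0.07, and 1 member, Spry1, kept an unadjusted p under 0.05. Across the other single arrays left out, 2 to 5 members were lower, the 5 without FGF2 array 3 and the 2 without PDGFab array 2, and 1 was higher without FGF2 array 2.

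Spry1, a Sprouty inhibitor of receptor tyrosine kinase signalling, was measured at 7.72, 7.78 and 8.10 in PDGFab ovaries and at 8.79, 8.46 and 8.41 in FGF2 ovaries. The groups did not overlap, and the PDGFab arrays lay around the control median of 7.92 while each FGF2 array exceeded the highest control, 8.32. The difference was -0.69 (-1.02 to -0.36, p = 0.000167, adjusted p = 0.564). It stayed between -0.81 and -0.57 when single arrays were left out. Spry4, of the same family, was at 6.55, 6.19 and 6.33 in PDGFab ovaries and at 7.97, 6.45 and 6.65 in FGF2 ovaries. FGF2 array 1 was far above the other samples, and the difference of -0.67 (-1.19 to -0.14) was -0.19 (p = 0.392) without it. Dusp4, a nuclear ERK phosphatase, also had FGF2 array 1 as its highest sample, with 7.33, 6.18 and 6.75 in PDGFab ovaries, 8.41, 7.12 and 6.81 in FGF2 ovaries and a difference of -0.69 whose interval included 0 (-1.52 to 0.14). Spry2 (-0.19) and Spred2 (-0.37) did not reach the unadjusted threshold, nor did Dusp1 (-0.18) and Dusp5 (-0.24).

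The PEA3 group, Etv1, Etv4 and Etv5, was lower in PDGFab ovaries without overlap between the groups, beside 2.81% of all probe sets with every PDGFab array below every FGF2 array. Etv4 was at 7.17, 6.39 and 6.74 in PDGFab ovaries and at 8.33, 7.37 and 7.60 in FGF2 ovaries, a difference of -1.01 (-1.58 to -0.43, p = 0.00126, not past adjustment). The control median was 6.44, near the lower PDGFab arrays. Leaving out single arrays gave -1.21 to -0.72, with an unadjusted p of at most 0.023. Etv1 was at 7.86, 7.40 and 8.04 in PDGFab ovaries and at 8.41, 8.24 and 8.06 in FGF2 ovaries, a difference of -0.47 (-0.78 to -0.17). Its highest PDGFab array was next to its lowest FGF2 array, so the gap between the groups was narrow, and the difference was -0.29 (p = 0.0666) without PDGFab array 2. Etv5 was at 6.27, 6.0 and 6.33 in PDGFab ovaries and at 7.71, 6.63 and 6.40 in FGF2 ovaries, a difference of -0.72 (-1.17 to -0.26) that was -0.32 (p = 0.122) without FGF2 array 1. The other 5 ETS genes on the list, Ets1, Ets2, Elk3, Ehf and Elf3, had differences between -0.16 and 0.42 and none reached the unadjusted threshold. No immediate early gene of 25, Fos, Egr1, Jun and Myc among them, reached it either, beside 1.28% of all probe sets. Myc was lower at it without FGF2 array 3 and Egr2 higher without FGF2 array 1.

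**Figure D3:**
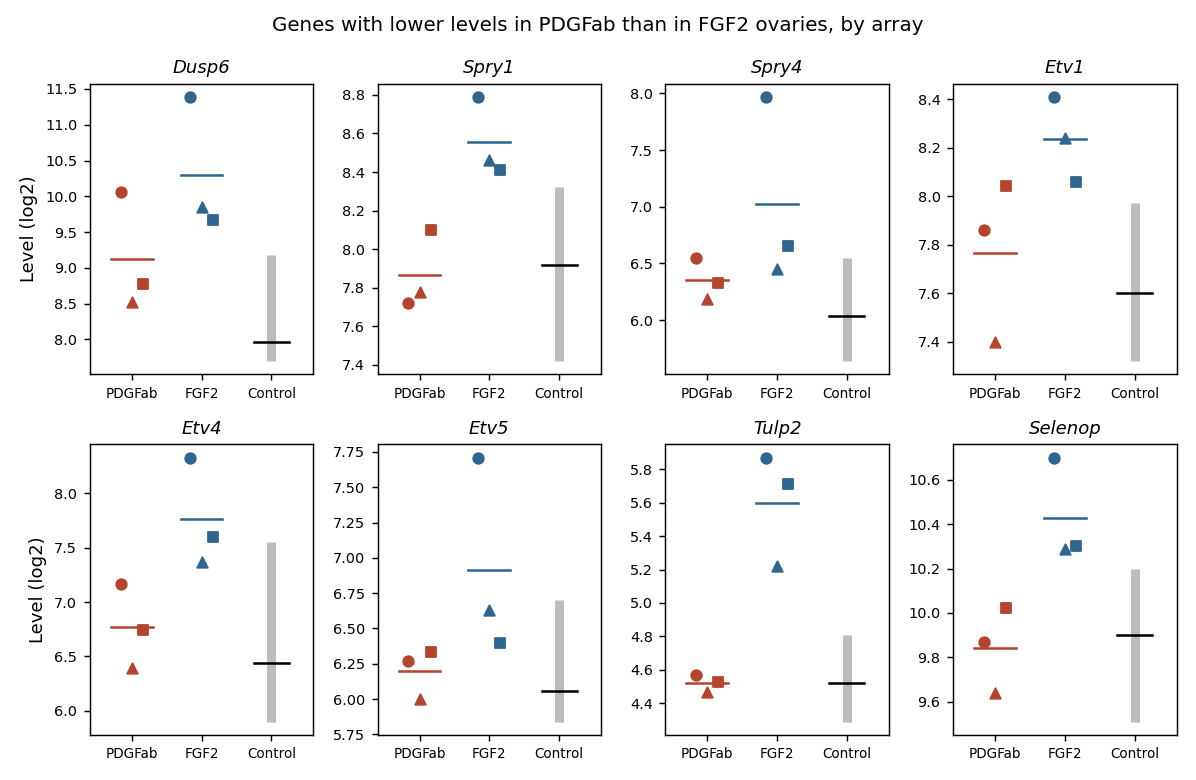
Level (log2, vertical axis) of 8 genes in the 3 PDGFab arrays, the 3 FGF2 arrays and the controls, with circles, triangles and squares for arrays 1, 2 and 3, coloured lines for group means, and a grey bar and black line for the range and median of the 14 controls. FGF2 array 1 is the highest sample in each panel, and the groups are apart for Spry1, Etv1, Etv4, Etv5, Tulp2 and Selenop but overlap for Dusp6 and Spry4.

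Genes outside these families had some of the largest lower values. Mmp13, a collagenase, was at 6.13, 5.33 and 5.75 in PDGFab ovaries and at 7.74, 6.59 and 7.21 in FGF2 ovaries, a difference of -1.44 (-2.66 to -0.22). Groups did not overlap, but the controls ran from 4.80 to 8.32 and covered both. It was the only one of 23 plasminogen and metalloproteinase genes with an unadjusted p under 0.05, beside 0.779% of all probe sets lower. It lost that threshold without PDGFab array 2 (-1.24, p = 0.0763) or FGF2 array 1 (-1.16, p = 0.0922). Without the last, the list had 2 higher and none lower, and without FGF2 array 3 it had 3 lower and 1 higher. Mchr1, a receptor for melanin-concentrating hormone, was at 5.30, 5.14 and 4.92 in PDGFab ovaries and at 6.69, 5.74 and 6.17 in FGF2 ovaries, a difference of -1.08 (-1.68 to -0.48). Pnoc, which encodes the nociceptin precursor, was at 8.5, 6.71 and 8.37 in PDGFab ovaries and at 9.27, 8.30 and 9.42 in FGF2 ovaries, a difference of -1.14 (-2.06 to -0.21) with overlapping groups. The Pnoc difference was -0.56 (p = 0.232) without PDGFab array 2. Both factors' arrays lay at or above the control median of 6.69.

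Of the Ly6 family of lipid-anchored surface proteins, Ly6c differed by -1.06 (-1.77 to -0.35) and Ly6al by -1.01 (-1.46 to -0.57). Ly6c was at 7.47, 7.44 and 8.0 in PDGFab ovaries and at 8.79, 8.37 and 8.93 in FGF2 ovaries, with no overlap. Ly6al was at 4.67, 4.40 and 4.31 in PDGFab ovaries and at 5.46, 4.88 and 6.09 in FGF2 ovaries, again apart. Its adjusted p was 0.315. Cpm, a membrane carboxypeptidase, Ptprz1, a receptor phosphatase, and Acp3, an acid phosphatase, differed by -1.03, -0.94 and -0.82, each with an unadjusted p under 0.05 that was 0.286, 0.121 and 0.057 without FGF2 array 1. Cyp26b1, a retinoic acid hydroxylase, was set by a single array. It read 4.80, 5.01 and 4.86 in PDGFab ovaries and 7.63, 4.95 and 5.0 in FGF2 ovaries, and its difference of -0.97 was -0.09 (p = 0.518) without FGF2 array 1. The same array set Rem1, a Ras-like GTPase, whose difference of -0.71 was -0.08 without it.

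Probe sets past those criteria were also followed through each fit that left out 1 of the 6 arrays. Of 175, 29 met the criteria in all 6 such fits, 24 lower and 5 higher, and these were chosen after their values were seen. FGF2 array 1 was the highest of the 6 arrays for 89 of the 106 lower probe sets and the lowest for 40 of the 69 higher ones. PDGFab array 1 was the highest for 38 of those 69. The same shares over all probe sets were not counted, and among lower probe sets an FGF2 array is usually the highest. The 19 lower genes with a name among the 29 were Mchr1, Tulp2, Ly6c, Ly6al, Etv4, Lrrc55, Bace2, Serpini1, Gsn, Spry1, Aplnr, Sod3, Nsg2, Selenop, Zfp385b, Tmem204, Aass, Ehd3 and Anxa5. Lower probe sets without a single symbol included those the paper lists as Cd38 (-0.848), Amot (-0.80) and Hmcn1 (-0.705). The Cd38 probe set was at 7.35, 6.77 and 7.12 in PDGFab ovaries and at 7.99, 7.90 and 7.89 in FGF2 ovaries. Its highest control was 7.22 and its adjusted p in limma 0.218. Selenop, the plasma selenium carrier, was at 9.87, 9.64 and 10.02 in PDGFab ovaries and at 10.70, 10.29 and 10.30 in FGF2 ovaries, a difference of -0.58 (-0.85 to -0.32, adjusted p = 0.327). Gsn, the actin-severing protein gelsolin, was at 8.25, 7.73 and 8.13 in PDGFab ovaries and at 9.05, 8.57 and 8.62 in FGF2 ovaries, a difference of -0.71 (-1.17 to -0.25). For both genes every FGF2 array exceeded every control, whose maxima were 10.20 and 8.20.

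Sod3, the secreted superoxide dismutase, was at 6.84, 6.43 and 6.33 in PDGFab ovaries and at 7.47, 7.09 and 6.87 in FGF2 ovaries, and its interval was -0.92 to -0.29. Anxa5, a phospholipid-binding annexin, was at 10.70, 10.69 and 10.83 in PDGFab ovaries and at 11.12, 11.02 and 11.02 in FGF2 ovaries, with an interval of -0.55 to -0.07. Its 6 values were apart by group although the difference was small. Aplnr, the apelin receptor, overlapped: PDGFab ovaries had 5.13, 5.51 and 5.04 and FGF2 ovaries had 6.39, 5.31 and 5.91. Bace2, a membrane aspartyl protease, was at 7.84, 8.19 and 8.43 in PDGFab ovaries and at 8.5, 8.91 and 9.39 in FGF2 ovaries, and here FGF2 array 1 was the lowest of its group.

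The genes with higher levels in PDGFab ovaries included several of stroma and matrix. Of 23 mesenchymal transcription factor and stroma genes, 4 (Lum, Cthrc1, Prrx1 and Prrx2) were higher at an unadjusted p under 0.05 and none was lower, beside 0.497% and 0.779% of all probe sets. The median difference of the list was 0.08, with 15 of 23 above 0, and none passed adjustment. Without PDGFab array 1 the median was -0.04 with 3 members at that threshold, Lum, Cthrc1 and Twist2, and without FGF2 array 1 it was 0.16 with 6. Lum and Cthrc1 were the only members at it without FGF2 array 2, and both stayed at it without each of the 6 arrays. Most of the abundant stromal genes on the list did not separate the groups, among them Dcn (0.26, -0.14 to 0.65), Vim (-0.01, -0.29 to 0.28) and Postn (0.05, -0.54 to 0.63). Of 14 collagen genes, Col12a1 alone reached the unadjusted threshold (0.52, 0.10 to 0.94), with 0.27 (p = 0.211) without PDGFab array 1 and 0.46 (p = 0.0575) without FGF2 array 3, and no collagen gene reached it in either case. Without FGF2 array 1 there were 5, all higher. With all arrays, Col1a1 differed by 0.27 (-0.17 to 0.70).

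Lum, the matrix proteoglycan lumican, was at 10.06, 9.51 and 9.44 in PDGFab ovaries and at 7.47, 8.80 and 8.62 in FGF2 ovaries. The groups did not overlap, as was so in this direction for 1.92% of all probe sets, and the control median of 9.45 lay with the PDGFab arrays, so that the FGF2 arrays were the ones set off from most controls. The difference was 1.37 (0.59 to 2.15, p = 0.00107), and it was 0.96 without FGF2 array 1. Cthrc1, a secreted protein of matrix-forming fibroblasts, was at 8.82, 7.62 and 8.08 in PDGFab ovaries and at 7.48, 6.81 and 6.67 in FGF2 ovaries, against a control median of 7.07. For this gene the PDGFab arrays were the ones near or above the highest control, 7.67. The difference was 1.19 (0.61 to 1.76, p = 0.000186, adjusted p = 0.564) and ran from 0.87 to 1.46 without single arrays. Prrx1, a mesenchymal homeobox factor, was at 9.62, 8.09 and 8.39 in PDGFab ovaries and at 8.89, 7.72 and 7.49 in FGF2 ovaries. Array 1 was the highest of each group, and the difference of 0.67 (p = 0.048) was 1.10 without FGF2 array 1 and 0.21 (p = 0.522) without PDGFab array 1.

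Pi15, a peptidase inhibitor, was at 7.55, 7.29 and 6.85 in PDGFab ovaries and at 5.13, 5.67 and 6.40 in FGF2 ovaries, a difference of 1.49 (0.43 to 2.56). Its control median was 7.43, again on the PDGFab side. Epha3, an ephrin receptor tyrosine kinase, was at 5.89, 5.40 and 5.58 in PDGFab ovaries and at 4.99, 5.10 and 4.85 in FGF2 ovaries, a difference of 0.64 (0.38 to 0.91, adjusted p = 0.218). Every PDGFab array exceeded the highest control, 5.39, and the FGF2 arrays lay within the control range. Lum, Cthrc1, Pi15 and Epha3 were the named genes among the 5 higher probe sets that met the criteria in all 6 fits without an array. B3galt1, a galactosyltransferase, had the largest difference of the named genes, 1.59 (0.15 to 3.02), with 5.76, 7.06 and 6.04 in PDGFab ovaries and 4.33, 5.43 and 4.34 in FGF2 ovaries. Its unadjusted p of 0.0316 was 0.137 without PDGFab array 2, 0.0884 without FGF2 array 1 and 0.0876 without FGF2 array 3. The controls for B3galt1 ran from 4.55 to 7.41 and covered every PDGFab array and FGF2 array 2.

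**Figure D4:**
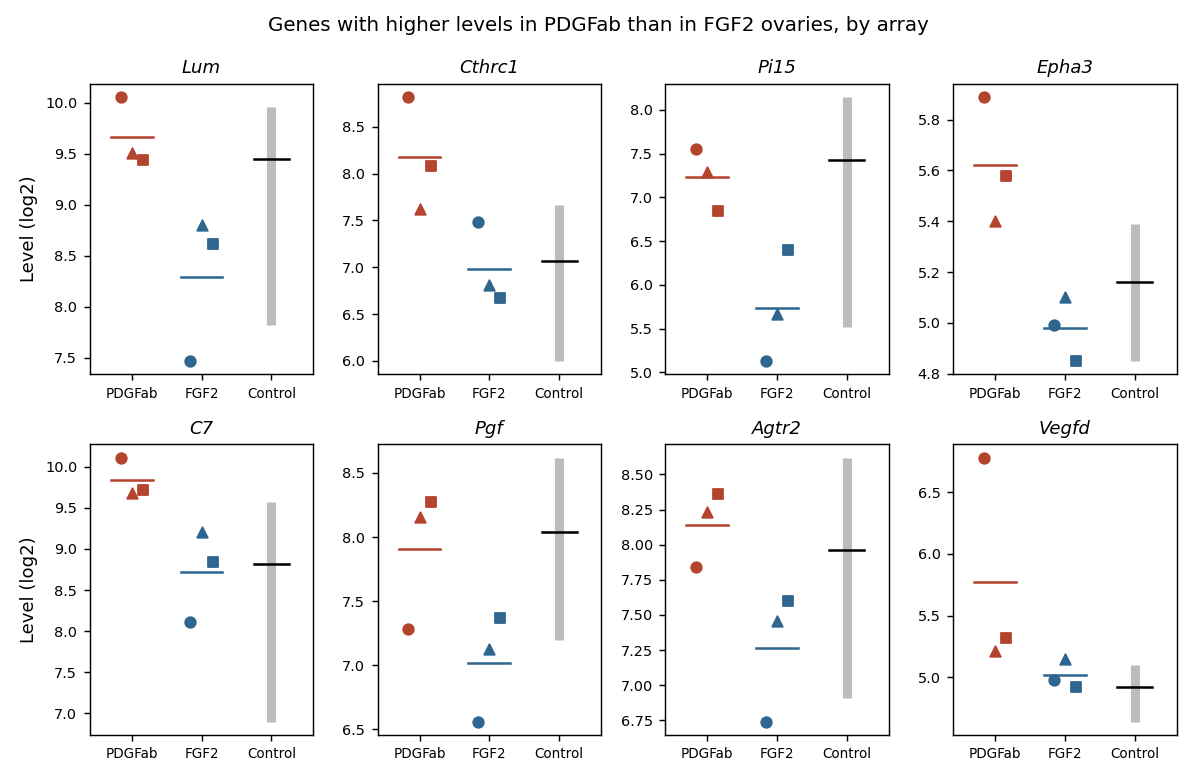
Level (log2, vertical axis) of 8 genes in the 3 PDGFab arrays, the 3 FGF2 arrays and the controls, with circles, triangles and squares for arrays 1, 2 and 3, coloured lines for group means, and a grey bar and black line for the range and median of the 14 controls. The control median is on the PDGFab side for Lum, Pi15, Pgf and Agtr2 and near the FGF2 arrays for Cthrc1, C7 and Vegfd.

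C7, a complement component, was at 10.11, 9.68 and 9.71 in PDGFab ovaries and at 8.11, 9.21 and 8.84 in FGF2 ovaries, a difference of 1.12 (0.26 to 1.97). Every PDGFab array exceeded the highest control, 9.57, and the difference was 0.81 (p = 0.0872) without FGF2 array 1. Agtr2, the type 2 angiotensin receptor, was at 7.84, 8.23 and 8.36 in PDGFab ovaries and at 6.74, 7.46 and 7.60 in FGF2 ovaries, a difference of 0.88 (0.23 to 1.53) that was 0.62 (p = 0.0832) without FGF2 array 1. Pgr, the progesterone receptor, differed by 0.88 (0.12 to 1.64) with overlapping groups, and by 0.58 (p = 0.164) without FGF2 array 1. Vcan, the matrix proteoglycan versican, and Igsf10, a secreted immunoglobulin-superfamily protein, differed by 0.78 (0.09 to 1.47) and 0.78 (0.25 to 1.31), and PDGFab array 1 was the highest of the 6 for both. Without it they differed by 0.39 (p = 0.271) and 0.54 (p = 0.0614). Insulin-like growth factor genes had 2 of 18 at an unadjusted p under 0.05, both binding proteins and both higher, beside 0.497% of all probe sets: Igfbp1 by 0.47 (0.14 to 0.81) and Igfbp5 by 0.37 (0.01 to 0.74). Igfbp1 was at 0.23 (p = 0.162) without PDGFab array 3 and Igfbp5 at 0.20 (p = 0.301) without FGF2 array 2. The count was 4 without FGF2 array 1, 0 without PDGFab array 3 and 1 without PDGFab array 2 or FGF2 array 2. Igf1 itself was at 11.22, 11.33 and 11.17 in PDGFab ovaries and at 10.98, 10.86 and 11.06 in FGF2 ovaries, apart by group but with an interval that included 0 (-0.01 to 0.56).

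The medians of the oocyte and macrophage lists changed sign without FGF2 array 1. Of 17 oocyte genes, 16 had a difference above 0, where 49.8% of all genes were below 0. None reached an unadjusted p under 0.05, beside 1.28% of all probe sets, and the median was 0.24. Bmp15, an oocyte growth factor, was at 10.20, 9.93 and 9.97 in PDGFab ovaries and at 7.58, 10.37 and 9.94 in FGF2 ovaries. FGF2 array 1 was thus far below the other FGF2 arrays, and without it the oocyte median was -0.28 with 16 of 17 genes below 0. The mean level of the oocyte list was 8.98, 9.44 and 9.49 in PDGFab ovaries and 7.80, 9.83 and 9.41 in FGF2 ovaries. The mean level of the 17 macrophage genes was 6.71, 6.79 and 6.88 in PDGFab ovaries and 7.43, 6.81 and 6.65 in FGF2 ovaries, and their median difference of -0.24 was 0.05 without FGF2 array 1. That array therefore carried lower oocyte and higher macrophage levels, and their part in the differences above was not tested. Cd163, a scavenger receptor of macrophages, was the only gene of the macrophage list at the unadjusted threshold, beside 0.497% of all probe sets higher. It was higher by 0.84 (0.21 to 1.47), or by 0.54 (p = 0.111) without PDGFab array 1.

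No pregranulosa and gonadal gene of 20 and no endothelial gene of 13 reached an unadjusted p under 0.05. Of all probe sets 1.28% did, so a count of 0 says little about these lists. The same holds for the smooth muscle and mast cell lists below. Wt1, a marker of ovarian somatic cells, differed by 0.02 (-0.38 to 0.41) and Amhr2, the AMH receptor, by -0.03 (-0.53 to 0.48). The median difference was 0.13 for pregranulosa and gonadal genes and -0.05 without FGF2 array 1. For endothelial genes it was 0.02, and -0.21 without that array. Smooth muscle and pericyte genes, where PDGF receptors are prominent, had none of 17 at the threshold and a median of 0.09. The median was -0.09 without PDGFab array 1, and 3 were higher without FGF2 array 1. Among the surface epithelium genes, Upk1b, a uroplakin, was the only gene of 13 at the threshold, beside 0.779% of all probe sets lower. Its difference of -0.78 (-1.53 to -0.03) was -0.39 (p = 0.322) without PDGFab array 2 and -0.45 (p = 0.262) without FGF2 array 1. None of 9 mast cell genes reached the threshold, and their levels varied widely between wells, with Cpa3 at 6.09, 7.72 and 7.16 in PDGFab ovaries and at 6.0, 7.56 and 5.03 in FGF2 ovaries.

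The growth lists held no gene at the unadjusted threshold, while the cholesterol and glycolysis lists lay mostly above 0. None of 22 cell division genes, of 13 D cyclin and CDK inhibitor genes or of 72 ribosomal protein genes reached an unadjusted p under 0.05. Of all probe sets 1.28% did, so a count of 0 says little about these lists. At that threshold Ccnb1 and Ccnb2 were higher without FGF2 array 2, and Cdkn1b was higher without PDGFab array 1. Ccnd1 and Cdkn2b were lower without PDGFab array 1 or FGF2 array 3. The ribosomal median was -0.02. Of 15 cholesterol synthesis genes, 14 were above 0 with a median of 0.22, where 49.8% of all genes were below 0. Cyp51, the sterol demethylase, was the only gene at the unadjusted threshold (0.60, 0.04 to 1.16), beside 0.497% of all probe sets higher. Cyp51 was at 9.96, 8.57 and 9.13 in PDGFab ovaries and at 9.43, 8.40 and 8.04 in FGF2 ovaries, with overlap. Its difference was 0.22 (p = 0.423) without PDGFab array 1 and 1.0 (p = 0.000778) without FGF2 array 1. The list's median was 0.07 with no gene at the threshold without PDGFab array 1, and 3 genes were at it without FGF2 array 1. Of 21 glycolysis and low-oxygen genes, 19 were above 0 with a median of 0.16, which was 0.05 without FGF2 array 1. Slc2a3, a glucose transporter, was the only gene at the threshold (0.71, 0.12 to 1.31), beside the same 0.497%. Its difference was 0.47 (p = 0.15) without PDGFab array 1, and 6 genes were at the threshold without FGF2 array 3.

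**Figure D5:**
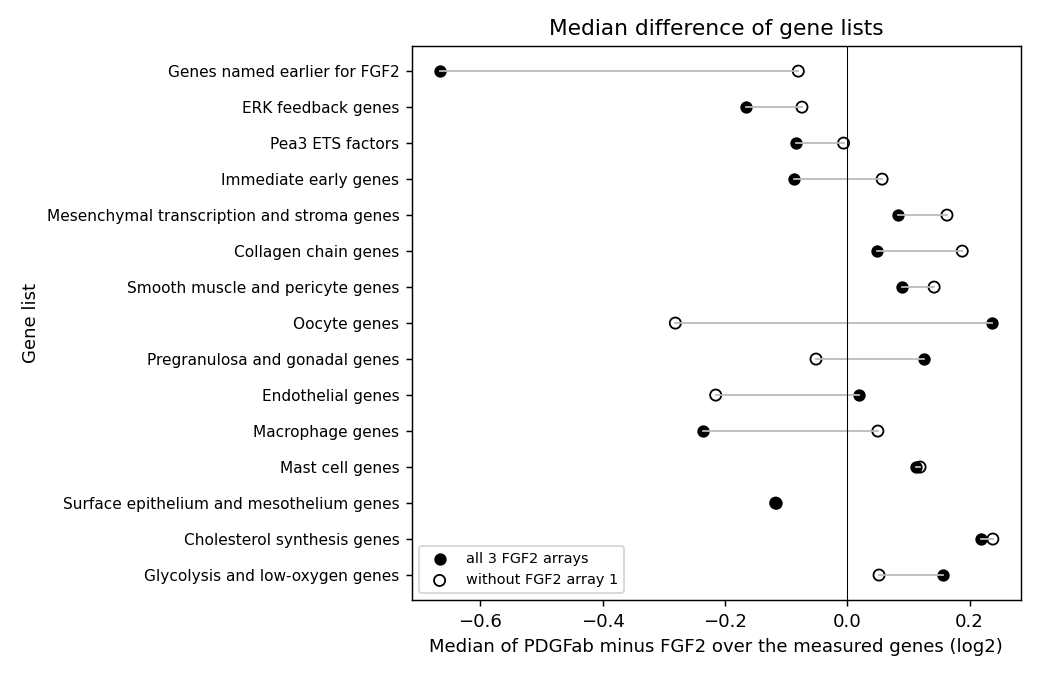
Median PDGFab minus FGF2 difference (log2, horizontal axis) over the measured genes of each list shown (vertical axis), with filled circles for all 3 FGF2 arrays and open circles for the fit without FGF2 array 1. The medians of the oocyte, pregranulosa, endothelial, macrophage and immediate early lists, among those shown, change sign without that array.

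Genes named in earlier comparisons of these samples with controls are not independent evidence. Several were also read above, among them Dusp6, Dusp4, Etv4, Mchr1, Pnoc, Rem1, Upk1b, Pgf, Cthrc1, Prrx1, Vegfd and Slc2a3. The list counts above that include such genes are not independent of those comparisons either. Of 15 named for FGF2, 7 were lower and 2 higher in PDGFab ovaries at an unadjusted p under 0.05, beside 0.779% and 0.497% of all probe sets, with a median of -0.67 that was -0.08 without FGF2 array 1, where 2 were lower and none higher. Without PDGFab array 2, 4 were lower and 1 higher. Slc29a1, a nucleoside transporter of that list, was at 8.46, 8.22 and 8.14 in PDGFab ovaries and at 9.80, 8.56 and 8.46 in FGF2 ovaries, against controls of 7.55 to 8.09. Both factors' arrays thus lay above all controls, and the difference of -0.67 (p = 0.00096) was -0.24 (p = 0.0564) without FGF2 array 1. Of 10 named for PDGFab, 5 were higher and none lower, with a median of 0.38. Without PDGFab array 1 the median was 0.17 and Cthrc1 alone was higher, and without FGF2 array 2 there were 3. Rpa3, a subunit of replication protein A from that list, was at 7.80, 7.67 and 7.72 in PDGFab ovaries and at 8.38, 7.96 and 7.44 in FGF2 ovaries, a difference of -0.20 (-0.73 to 0.34). All PDGFab arrays lay below the lowest control, 8.18, as did FGF2 arrays 2 and 3. Hsd11b1, which regenerates active glucocorticoid and stands on both lists, was at 10.24, 9.47 and 9.83 in PDGFab ovaries and at 10.96, 9.93 and 9.61 in FGF2 ovaries. Its difference of -0.32 had an interval of -0.88 to 0.25, and all 6 arrays exceeded the highest control, 9.42.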

How the data were processed

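The authors read the scans of the Affymetrix Rat Gene 1.0 ST arrays with Partek, using RMA adjusted for the GC content of probes. The deposited table holds the log2 levels this gave, by the authors' processing. The 38 arrays with 8 growth factors and their controls were preprocessed together. The 6 arrays of the CTGF set were preprocessed apart and were not used. Arrays have no read depth, so the 3 arrays per group set the precision.

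All 27342 probe sets were kept. The platform annotation gave 1 gene symbol to 15103 of them, several to 317 and none to 11922, and only the first kind was named. Of the symbols, 15077 were kept, 2 updated and 24 not matched by gene number. The contrast PDGFab minus FGF2 was fitted with limma 3.58.1 (lmFit, then eBayes) under R 4.3.3, with 1 mean per treatment over the 38 arrays, so that the other arrays gave only the variance (29 residual degrees of freedom). P-values were adjusted by Benjamini-Hochberg over all probe sets at 0.05. Tables were prepared with Python 3.11.15 and pandas 2.3.3.

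The genes named were the 12 largest in each direction at the study criteria, since fewer than 10 probe sets passed adjustment, up to 4 genes of each list with the smallest p, the ligand and receptor genes, and the genes named earlier. Lists used the probe set of highest mean level per gene. The comparison, the lists and these rules were chosen with earlier results of these data known. The limma fit was tested on simulated data. Alternatives were other sets of arrays in the fit, the replicate number as a block, array weights, a robust trend, other normalizations, a filter on dim probe sets, the methods' t-test and leaving out arrays.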

Additional observations from a re-analysis of the deposited data

How the results depend on the processing

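The adjusted count was 1 in the reported fit. It was 0 in the fit of the 6 arrays alone, 0 by the methods' t-test on log2 or on linear values, and 0 with the dimmer probe sets left out, a filter that removed Tulp2 itself. It was 2 in the fit of the treated arrays without controls and 3 with array quality weights. It ran from 1 to 6 without single arrays, being 6 without FGF2 replicate 2 and 2 without FGF2 replicate 1. The unadjusted count, 349 as reported, was 576 without controls in the fit, 681 with array weights, 128 with the dimmer probe sets left out, 560 and 543 by the t-tests on log2 and linear values, and 315 to 890 without single arrays. The study criteria count, 175 as reported, was 87 and 83 by those t-tests and 167 to 662 without single arrays, 662 without FGF2 replicate 2, 574 without FGF2 replicate 3 and 302 without PDGFab replicate 1. No probe set at the study criteria changed sign in these alternatives. Their selection on the same values nearly fixed the signs, and fits that changed only the variance could not change them. Of the 175, 43 met the criteria again by the t-test on linear values and 62 without FGF2 replicate 1. With arrays centred on their medians 169 did. With both first arrays left out, chosen after seeing the data, 1 changed sign. In that fit 128 probe sets met the criteria, 56 of them shared with the reported 175.

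The replicate numbers were checked for pairing: deviations of same-numbered PDGFab and FGF2 arrays correlated at 0.449, 0.247 and 0.045, so the numbers were not taken as pairs. PDGFab arrays 1, 2 and 3 deviated most like the same-numbered BMP4 arrays (0.603, 0.445 and 0.453). FGF2 arrays 1, 2 and 3 deviated most like control 1 (0.74), KITLG array 2 (0.441) and LIF array 3 (0.414), which carry the same numbers. The next nearest to FGF2 array 1 were LIF array 1 (0.633) and KITLG array 1 (0.547). The labels give no culture day, and the part of this shared variation in the differences was not tested. With the replicate block over the 38 arrays the counts were 2 adjusted, 602 unadjusted and 326 at the study criteria. With the block over the 6 arrays they were 0, 604 and 452.

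Of 1197 values for 64 named genes, 1162 kept their direction and side of the adjusted threshold. The adjusted call was lost by 4 and gained by 1. Only Tulp2 passed that threshold in the reported fit, and fits that changed only the variance could not change a direction. The 1162 therefore do not measure stability. Of the 46 named genes with an unadjusted p under 0.05, 36 lost it without at least 1 single array. The other 30 values changed sign, all of genes whose interval included 0. With array weights the differences were 0.005 for Fgf2, 0.051 for Fgfr2 and 0.137 for Pla1a. With both first arrays left out they were 0.078 for Nrgn, 0.181 for Mc2r, 0.073 for Ptgs2, 0.04 for Fgf2, 0.006 for Fgfr1, 0.039 for Pdgfa, 0.129 for Fgfr2, 0.188 for Pla1a and -0.016 for Pdgfra. Without single arrays the ranges were -0.27 to 0.14 for Fgf2, -0.21 to 0.17 for Fgfr2, -0.41 to 0.48 for Pla1a, -0.085 to 0.22 for Pdgfra, -0.12 to 0.082 for Pdgfa, -0.066 to 0.32 for Fgfr3, -0.23 to 0.008 for Pdgfrb, -0.18 to 0.082 for Fgfr1, -1.11 to 0.11 for Nrgn, -0.87 to 0.40 for Ptgs2, -0.60 to 0.081 for Hsd11b1 and -0.44 to 0.03 for Rpa3. The causes were not tested. Signal near background limits dim probe sets, Tulp2 in PDGFab ovaries among them.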
